A study of Mus musculus with 36 samples.

Results

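The response to amino acid starvation was set against the response to thapsigargin in mouse embryonic fibroblasts (MEFs) in which the labels give GCN2 as deleted. For each gene, the thapsigargin effect (thapsigargin minus DMSO) was subtracted from the starvation effect (starved minus untreated) on the scale log2(TPM + 1), where TPM is the length-normalised share of a gene's transcripts in a library, scaled to the same total in each. A positive difference therefore means that the starvation effect was the higher of both. The rule takes 12 of the 36 libraries of the series, 3 in each of 4 GCN2-deletion groups, and 16083 of 54735 gene symbols were tested. The starved libraries came from GCN2-deletion cells kept for 6 h in SILAC RPMI medium without lysine and arginine, and the untreated libraries from GCN2-deletion cells with no treatment. Thapsigargin, which blocks the pump that fills the endoplasmic reticulum (ER) with calcium, was given to GCN2-deletion cells at 200 nM for 6 h, and the DMSO libraries came from GCN2-deletion cells given that solvent. All 4 groups share the deletion and were grown in RPMI medium with fetal bovine serum. The other 24 libraries are wild-type (WT) and PERK-deletion MEFs under the same 4 conditions, 3 libraries each. The labels call the 3 libraries of a group technical replicates and name 1 line per genotype, so p-values measure only the spread between these libraries, and genotype and line cannot be told apart. No label says which control belongs to which stress, or whether the untreated cells also had a change of medium.

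Cells answer both stresses partly through kinases that phosphorylate the translation factor eIF2alpha. GCN2 senses uncharged tRNA when amino acids run short, and PERK senses unfolded proteins in the ER. Phosphorylated eIF2alpha slows general translation while favouring translation of ATF4, a transcription factor that induces genes for amino acid supply and, with CHOP, for the later stress response. ER stress also activates IRE1, which splices Xbp1 mRNA, and ATF6, and these raise ER chaperones independently of eIF2alpha.

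The transcript of the deleted gene was low but present. Eif2ak4, which encodes GCN2, had 5.43, 5.90 and 5.52 TPM in starved, 4.54, 5.52 and 5.69 TPM in untreated, 7.89, 5.36 and 6.87 TPM in thapsigargin and 7.69, 5.37 and 4.55 TPM in DMSO libraries of the GCN2-deletion line, against 18.4 to 28.1 TPM in the 12 WT libraries. No label gives the removed stretch of the gene, so whole-gene TPM can hold transcript that remains after a deletion. Its effects did not differ detectably between the stresses (-0.09, SE 0.186, adjusted p = 0.794). Most markers of fibroblasts were present: 9 of 12 had a mean of at least 1 TPM in each of the 4 groups. The expression filter, which runs over all 36 libraries, kept 10 of 12. The summed level of the 12 was 6398 to 6737 TPM in starved, 6833 to 7012 TPM in untreated, 5569 to 5725 TPM in thapsigargin and 6571 to 6907 TPM in DMSO libraries. A few abundant genes can carry such a sum, and Dcn, a defining marker, stayed under 1 TPM in all 12 libraries. Leukocyte markers summed to at most 8.948 TPM and epithelial markers to at most 1.305 TPM in any of the 12. Endothelial markers summed to 5.182 to 6.916 TPM with thapsigargin, against 2.259 to 3.895 TPM with DMSO, and neural markers, mostly Tubb3, to 25.26 to 28.76 TPM, against 14.32 to 17.94 TPM. Their part in the results was not tested, and in bulk RNA fewer cells of a type and less RNA per cell cannot be told apart. Short RNA genes took 3.27% of TPM in DMSO replicate 1 and 2.27% in thapsigargin replicate 2, against 0.989 to 1.61% in the other 10 libraries.

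The responses diverged for many genes, and on TPM as deposited the largest class was of genes that rose with thapsigargin and did not pass with starvation. With limma and Benjamini-Hochberg adjustment over all genes tested, a gene is said to differ, rise or fall at an adjusted p under 0.05. The starvation effect was higher than the thapsigargin effect for 1166 genes (7.25%) and lower for 2774 genes (17.2%), and with a difference of at least 1 on the log2 scale these were 212 and 464 genes (1.32 and 2.89%). Starvation raised 1887 genes (11.7%) and lowered 1956 (12.2%), while thapsigargin raised 4093 (25.4%) and lowered 1815 (11.3%). Of the 2774 genes with a lower starvation effect, 1435 rose with thapsigargin and did not pass with starvation, 530 fell with starvation and did not pass with thapsigargin, and 445 fell with starvation and rose with thapsigargin. Of the 1166 with a higher starvation effect, 508 fell with thapsigargin and did not pass with starvation, 302 rose with starvation and did not pass with thapsigargin, and 197 rose with starvation and fell with thapsigargin.

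The share of higher against lower genes depends on the scaling. Of the genes that differed, 29.6% had the higher starvation effect on TPM as deposited, against 49.7% after median-of-ratios rescaling (2102 higher, 2125 lower) and 48.2% after quantile normalization (1848 and 1988). The counts for thapsigargin also moved: over the alternatives other than leaving out each library, it raised 2984 to 4754 genes and lowered 1232 to 3226. The median difference over all genes was 0.016 after rescaling, against -0.087 before it, and the median thapsigargin effect was -0.021, against 0.078 before it. Small differences are therefore read against a median of about that size, and a list's count against the percentages above. A list's count under an alternative is read against the count of all genes under the same alternative. With a common control, which leaves starved minus thapsigargin, 1755 genes were higher and 4446 lower of 16083.

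**Figure D1:**
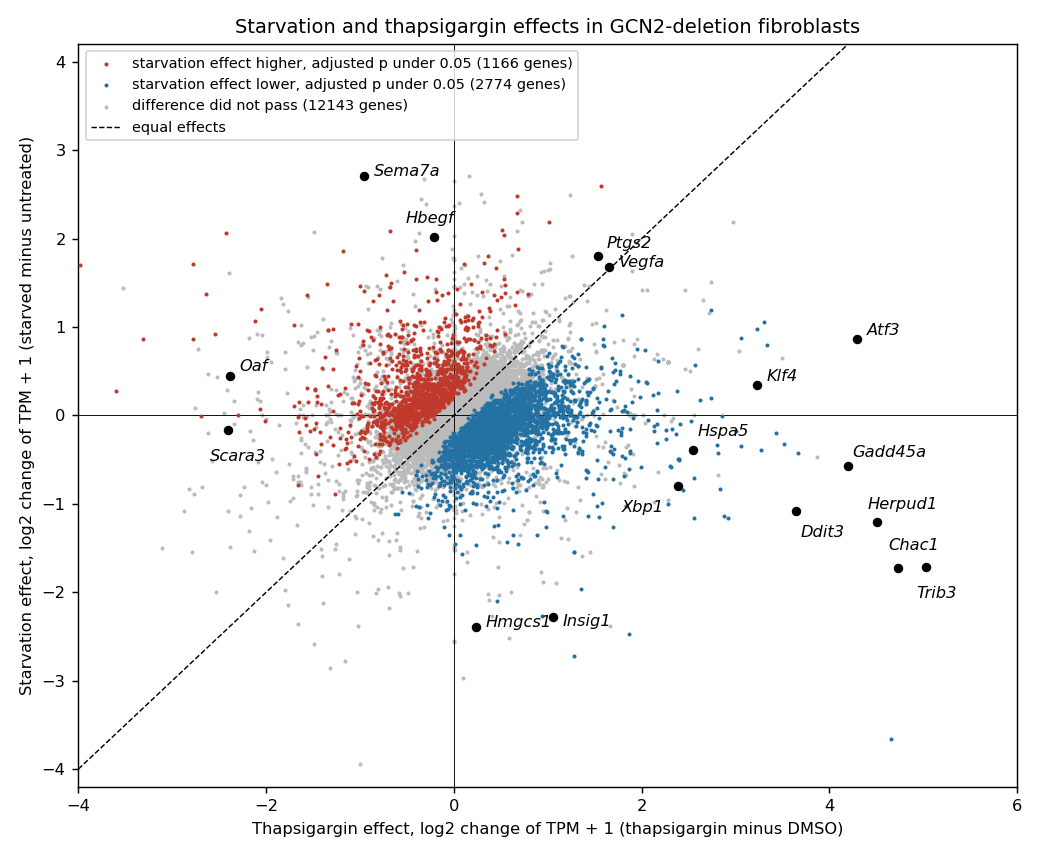
Starvation effect (vertical axis) against thapsigargin effect (horizontal axis) in GCN2-deletion cells, both as log2 change of TPM + 1, for the genes tested; each point is a gene, red and blue points are the 1166 genes with a higher and the 2774 with a lower starvation effect, black points are named genes, and the dashed line marks equal effects (1 gene lies outside the axes). Trib3, Chac1, Herpud1 and Ddit3 lie far right and below 0, Insig1 and Hmgcs1 lie low, and Sema7a lies high and left of 0.

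Of the genes for the 4 kinases of eIF2alpha, that for PERK passed the test of a different response, and the others did not. Eif2ak3 had 6.71, 6.00 and 5.69 TPM in starved and 10.7, 8.80 and 11 TPM in untreated libraries, and 20.7, 17.1 and 19.9 TPM in thapsigargin and 10.9, 9.49 and 9.43 TPM in DMSO libraries. The starved values lie below all untreated ones and the thapsigargin values above all DMSO ones, and the difference of effects was -1.53 (SE 0.138, adjusted p = 1.69e-09). Eif2ak1, which encodes HRI, and Eif2ak2, which encodes PKR, did not pass (95% intervals of the difference -0.26 to 0.05 and -0.17 to 0.62), and quantile normalization brought Eif2ak2 past the threshold (0.42, adjusted p = 0.0206).

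Genes under ATF4 and CHOP had the lowest median difference of the lists described, and most of them rose with thapsigargin and did not rise with starvation. Of 27 such genes tested, 25 had a lower starvation effect, 1 a higher one, and 1 did not pass; the median difference was -2.51, against -0.088 over all genes tested. With starvation 4 rose and 11 fell (median -0.27), and with thapsigargin 24 rose and 1 fell (median 2.26). In 12 of them starvation and thapsigargin effects both passed with opposite signs.

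Trib3, a pseudokinase that restrains ATF4 and CHOP, showed the lowest difference of the genes named by the rule. It had 1.53, 0.820 and 1.11 TPM in starved against 6.13, 5.89 and 6.02 TPM in untreated libraries, and 208, 206 and 216 TPM in thapsigargin against 6.38, 5.38 and 4.78 TPM in DMSO libraries. Each starved library lies below each untreated one, and each thapsigargin library far above each DMSO one. The starvation effect was -1.72 (SE 0.122, adjusted p = 2.88e-11), the thapsigargin effect 5.02 (SE 0.122, adjusted p = 5.83e-22) and the difference -6.74 (SE 0.172, adjusted p = 2.87e-21).

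Chac1, which degrades glutathione, followed the same course, with 3.04, 2.87 and 2.62 TPM starved and 12.3, 11.7 and 11.2 TPM untreated, and 344, 341 and 347 TPM with thapsigargin and 12.2, 12.5 and 11.2 TPM with DMSO (difference -6.46, SE 0.162, adjusted p = 2.39e-21). Ddit3, which encodes CHOP, stood at 16.6, 16.8 and 16.8 TPM in starved and 34.9, 38.7 and 35.8 TPM in untreated libraries, and at 484, 451 and 489 TPM in thapsigargin and 40.2, 36.2 and 34.7 TPM in DMSO libraries (difference -4.73, SE 0.0883, adjusted p = 3.45e-24). For both genes, and for the stress-induced leucine sensor gene Sesn2 (difference -4.02), the groups of each pair do not overlap and the effects run in opposite directions.

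Atf4 itself rose with thapsigargin and did not pass with starvation. It had 305, 305 and 332 TPM starved and 323, 326 and 315 TPM untreated, so the groups overlap (effect -0.04, SE 0.0474, adjusted p = 0.669), and 946, 879 and 972 TPM with thapsigargin against 320.4, 322 and 315 TPM with DMSO (difference -1.58, SE 0.0671, adjusted p = 2.41e-16). Ppp1r15a, whose product GADD34 brings a phosphatase to eIF2alpha, likewise overlapped between starved (26.4, 24.4 and 27.9 TPM) and untreated libraries (24, 32.5 and 23.3 TPM) and rose with thapsigargin (199, 201 and 204 TPM, against 31.6, 24 and 26 TPM with DMSO; difference -2.86, SE 0.173, adjusted p = 5.1e-13). Transcript levels say nothing about translation of Atf4, which was not measured.

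Not all of the list was silent under starvation. Atf3, a stress-induced repressor, rose to 6.28, 6.49 and 9.82 TPM in starved libraries, against 3.49, 3.61 and 3.75 TPM in untreated ones (effect 0.86, SE 0.145, adjusted p = 6.2e-05). Its rise with thapsigargin was the larger, at 91.6, 80.8 and 87.6 TPM against 3.36, 4.11 and 2.99 TPM with DMSO (difference -3.43, SE 0.206, adjusted p = 3.99e-13). Nuak2, a kinase of the AMPK family, was the gene of the list with the higher starvation effect. It stood at 30.5, 33.5 and 38.6 TPM starved and 15.6, 15.9 and 16.8 TPM untreated, and at 12.2, 12 and 12.3 TPM with thapsigargin and 19.2, 17.1 and 16.8 TPM with DMSO (difference 1.54, SE 0.14, adjusted p = 2.01e-09). Gadd45a, a growth arrest gene, and Adm2, a peptide hormone gene, rose with thapsigargin (effects 4.19 and 3.67) and fell with starvation (-0.57 and -0.43). Set against DMSO in place of untreated cells, the starvation effect of Adm2 did not pass (-0.13, adjusted p = 0.465).

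**Figure D2:**
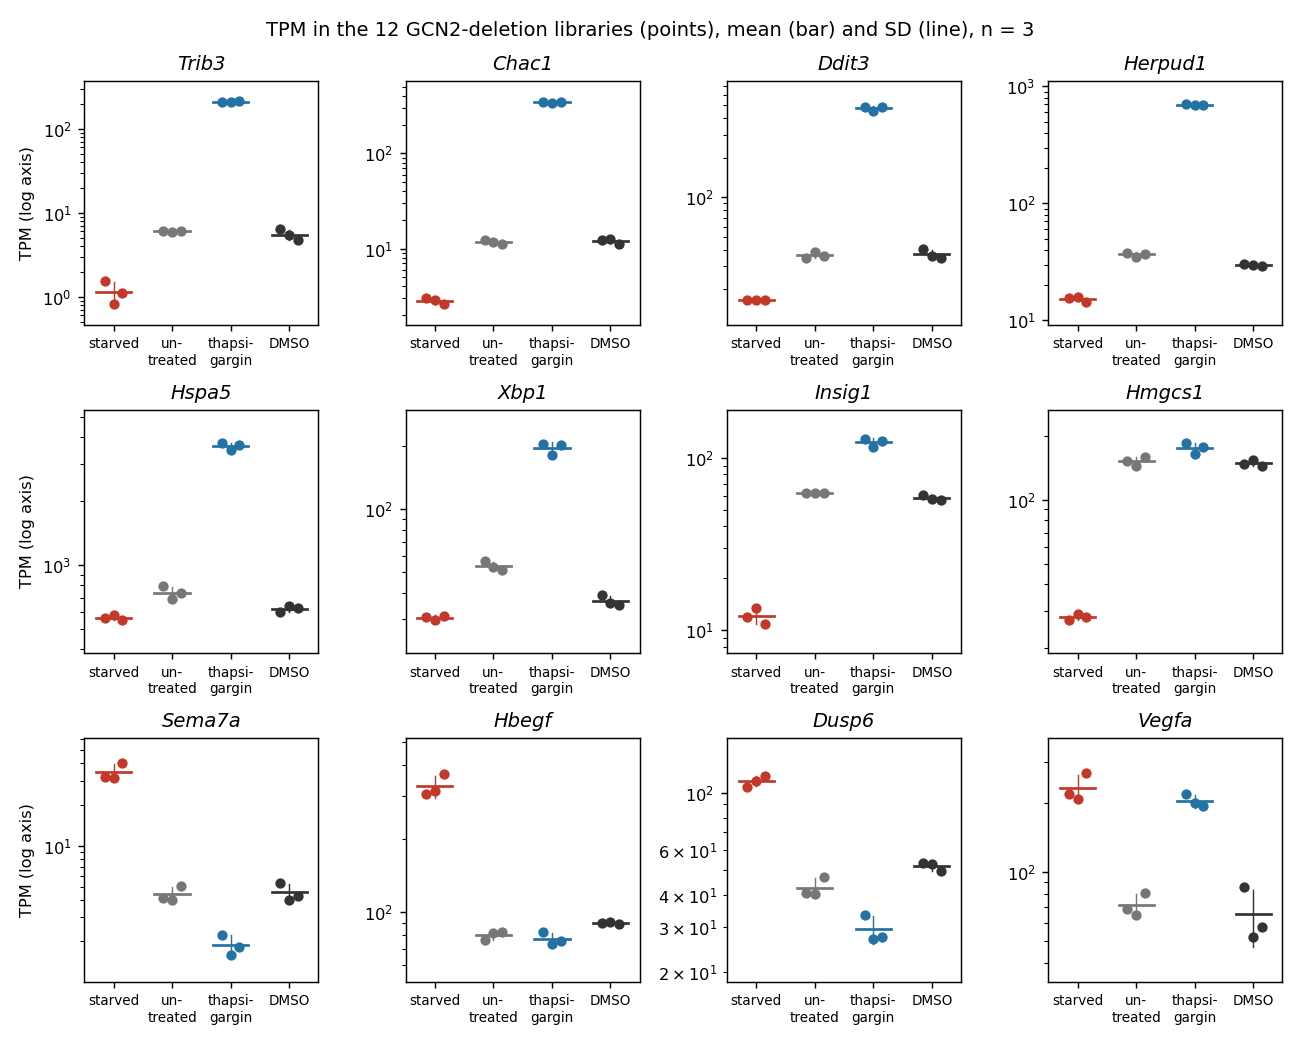
TPM (vertical axes, logarithmic) of 12 genes in the starved, untreated, thapsigargin and DMSO libraries of the GCN2-deletion line; points are the 3 libraries of a group, bars the mean and lines the SD. The stress and ER genes stand highest with thapsigargin, Insig1 and Hmgcs1 lowest in starved cells, Sema7a, Hbegf and Dusp6 highest in starved cells, and Vegfa is raised in both stressed groups.

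Genes for amino acid supply, the classical output of ATF4, showed the same split. Of 15 synthesis and one-carbon genes tested, 14 had a lower starvation effect and 0 a higher one (median -1.50); 2 rose and 9 fell with starvation, and 15 rose with thapsigargin. Gpt2, an alanine aminotransferase, had 6.18, 6.92 and 5.63 TPM in starved and 17.1, 14.1 and 14.5 TPM in untreated libraries, and 92, 83.4 and 82.2 TPM in thapsigargin and 12.9, 12.5 and 16.2 TPM in DMSO libraries (difference -3.72, SE 0.201, adjusted p = 3.75e-14). Neither pair of groups overlaps. The folate enzyme gene Aldh1l2 differed by -2.89 (SE 0.218, adjusted p = 4.93e-11), and Pck2, the mitochondrial enzyme that makes phosphoenolpyruvate, by -2.86 (SE 0.112, adjusted p = 4.43e-17).

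Asns, the asparagine synthetase gene, stood at 67.9, 73.3 and 71.4 TPM in starved and 86.8, 87.1 and 86 TPM in untreated libraries, a small fall, and at 242, 218 and 237 TPM with thapsigargin and 88.5, 87.9 and 90.8 TPM with DMSO (difference -1.66, SE 0.0759, adjusted p = 1.2e-15). Psat1, of serine synthesis, had the smallest difference of the panel of stress genes (-0.74, SE 0.0729, adjusted p = 7.72e-09), with 246, 259 and 252 TPM starved, 282, 278 and 284 TPM untreated, 441, 395 and 423 TPM with thapsigargin and 258, 292 and 287 TPM with DMSO.

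Of 20 cytosolic tRNA synthetase genes, which load amino acids onto tRNA, 16 had a lower starvation effect (12 after rescaling) and 0 a higher one (median -0.80). Starvation raised 2 and lowered 4, and thapsigargin raised 17. Aars, Cars and Sars, for alanine, cysteine and serine, differed most, by -1.79, -1.73 and -1.18. Aars had 81.5, 81.3 and 78.2 TPM in starved and 133, 126 and 134 TPM in untreated libraries, and 279.8, 259 and 272 TPM in thapsigargin and 124, 126 and 127 TPM in DMSO libraries, with no overlap in either pair.

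Among 15 amino acid transporter genes, 13 had a lower and 1 a higher starvation effect (median -1.43); 1 rose and 4 fell with starvation, and 12 rose with thapsigargin. Slc7a11, the cystine importer, is also on the ATF4 and CHOP list. It was low outside thapsigargin, where it had 17.2, 17.5 and 16.3 TPM, against 1.03, 1.16 and 1.32 TPM with DMSO. In starved libraries it had 0.435, 0.772 and 0.472 TPM and in untreated ones 0.868, 0.736 and 1.39 TPM, which overlap (difference -3.40, SE 0.247, adjusted p = 2.21e-11). Slc6a9, a glycine carrier, and Slc1a4, a carrier of neutral amino acids, differed by -3.28 and -2.42, and both fell with starvation and rose with thapsigargin. The exception was the taurine carrier Slc6a6 (0.64, SE 0.197, adjusted p = 0.0177), which passed in neither effect alone and did not pass without untreated replicate 2 (0.54, adjusted p = 0.06).

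Genes for protein folding in the ER formed a further group that rose with thapsigargin. Of 25 chaperone and folding enzyme genes, 21 had a lower starvation effect and 1 a higher one (median -1.03); 0 rose and 12 fell with starvation, and 20 rose and 1 fell with thapsigargin. Hspa5, which encodes the chaperone BiP, was abundant, at 561, 580.2 and 549.9 TPM starved and 791, 687 and 737 TPM untreated, and at 3749, 3469 and 3677 TPM with thapsigargin and 599, 643 and 624 TPM with DMSO. The starved libraries lie below the untreated ones (effect -0.39, SE 0.0628, adjusted p = 3.75e-05) and the thapsigargin libraries far above the DMSO ones (effect 2.54, SE 0.0628, adjusted p = 7.85e-22), giving a difference of -2.93 (SE 0.0888, adjusted p = 1.17e-19).

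Sdf2l1, an ER resident partner of chaperones, had 14.9, 16.1 and 16.6 TPM starved and 30.4, 29.5 and 27.3 TPM untreated, and 148, 143 and 151 TPM with thapsigargin and 21.7, 20.9 and 17.2 TPM with DMSO (difference -3.67, SE 0.108, adjusted p = 7.1e-20). Dnajb9, a BiP cochaperone, did not pass with starvation (effect -0.17, SE 0.102, adjusted p = 0.241) and had 49.9, 47.6 and 52.2 TPM with thapsigargin against 5.11, 5.37 and 5.59 TPM with DMSO (difference -3.17, SE 0.144, adjusted p = 9.51e-16). The thioredoxin-like gene Txndc5 went the other way by a small amount (0.29, SE 0.0776, adjusted p = 0.00565).

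Of 11 sensors and transcription factors of the unfolded protein response, 6 had a lower starvation effect and 0 a higher one (median -0.25). Starvation raised 2 and lowered 4, and thapsigargin raised 7. Xbp1 stood at 30.7, 29.4 and 30.9 TPM starved and 56.4, 52.9 and 51 TPM untreated, and at 204, 181 and 202 TPM with thapsigargin and 38.9, 35.7 and 35.1 TPM with DMSO (difference -3.19, SE 0.111, adjusted p = 3.17e-18). Gene-level TPM does not tell spliced from unspliced Xbp1. Wfs1, an ER membrane protein gene, differed by -1.32 (SE 0.116, adjusted p = 9.65e-10).

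The controls of the stresses were close but not the same for these genes. DMSO against untreated cells raised 9 genes (0.056%) and lowered 15 (0.0933%), and the lowered ones include Xbp1 (-0.54, adjusted p = 0.000748) and Sdf2l1 (-0.53, adjusted p = 0.000722), chosen for mention after their values were seen. Set against DMSO in place of untreated cells, the fall of Hspa5 with starvation did not pass (-0.14, adjusted p = 0.128). The falls of Xbp1 and Sdf2l1 still passed there but were smaller (-0.26 and -0.30, against -0.80 and -0.83 with untreated cells). With a common control, which leaves starved minus thapsigargin, 21 of the 25 chaperone genes were lower, as many as with separate controls.

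ER-associated degradation, which returns misfolded proteins to the cytosol, followed in part. Of 21 genes, 10 had a lower starvation effect and 0 a higher one (median -0.33). With a common control 16 of them were lower, but there 4446 of all genes were lower, against 2774 with separate controls. With starvation 2 rose and 5 fell, and 16 rose with thapsigargin. Herpud1, an ER membrane protein of this pathway, is also on the ATF4 and CHOP list. It had 15.5, 15.9 and 14.5 TPM in starved and 37.8, 34.8 and 37.1 TPM in untreated libraries, and 702, 689 and 697 TPM in thapsigargin and 30.5, 29.8 and 29 TPM in DMSO libraries. Neither pair overlaps, and the difference was -5.71 (SE 0.133, adjusted p = 5.1e-22). The ubiquitin ligase gene Syvn1 and its partner Sel1l differed by -2.25 and -1.53.

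Of 37 genes for ER translocation, glycosylation and export, 8 had a lower starvation effect (21.6%, near the 17.2% of all genes; 2 after rescaling and 17 with a common control) and 0 a higher one (3 with a common control), with a median of -0.12. Thapsigargin raised 21 and lowered 3, and starvation raised 2. The oligosaccharyltransferase gene Rpn1 differed by -0.43 (SE 0.0839, adjusted p = 0.000275).

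Promoters of some leading ATF4 and ER genes are shown because the known response elements of each branch can be read in them. They do not stand for their lists, in which most genes held no match to the list's element (CARE in 36.4% of ATF4 and CHOP genes, ERSE in 33.3% of chaperone genes). The 250 bases before the RefSeq start (GRCm38.p6) were searched on both strands for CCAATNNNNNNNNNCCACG (ERSE, the ER stress response element of ATF6), ERSE-II (a shorter form used by ATF6 and XBP1) and TTGCATCA (CARE, read by ATF4 with C/EBP partners). Both ERSE forms are built from the same short blocks, which differ between them in orientation and spacing, and the matches printed below do not overlap each other. Matches stand in capitals. The Hspa5 window is chr2:34771840-34772089 on the plus strand and holds 1 ERSE, and the Herpud1 window, chr8:94386179-94386428 on the plus strand, holds 1 ERSE-II and 1 CARE. The Chac1 window, chr2:119350992-119351241 on the plus strand, holds 1 CARE, and the Slc7a11 window, chr3:50443614-50443863 on the minus strand, holds 2. Sema7a, chr9:57939862-57940111 on the plus strand, is shown for its high difference in the other direction, and none of the motifs was found in it.
Hspa5: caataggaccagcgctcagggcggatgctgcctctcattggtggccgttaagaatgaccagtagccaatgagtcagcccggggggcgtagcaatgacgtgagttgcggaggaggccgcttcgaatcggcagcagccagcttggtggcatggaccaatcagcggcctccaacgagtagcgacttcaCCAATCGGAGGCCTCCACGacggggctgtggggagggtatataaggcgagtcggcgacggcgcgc
Herpud1: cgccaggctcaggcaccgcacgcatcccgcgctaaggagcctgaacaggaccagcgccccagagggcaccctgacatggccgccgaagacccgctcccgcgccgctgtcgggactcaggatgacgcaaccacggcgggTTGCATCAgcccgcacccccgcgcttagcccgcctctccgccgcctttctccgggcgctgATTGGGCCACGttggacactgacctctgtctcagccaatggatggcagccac
Chac1: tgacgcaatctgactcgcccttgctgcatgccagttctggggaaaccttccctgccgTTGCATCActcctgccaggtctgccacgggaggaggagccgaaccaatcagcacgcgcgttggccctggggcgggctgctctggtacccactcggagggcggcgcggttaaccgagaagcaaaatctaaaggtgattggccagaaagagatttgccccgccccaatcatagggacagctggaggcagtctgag
Slc7a11: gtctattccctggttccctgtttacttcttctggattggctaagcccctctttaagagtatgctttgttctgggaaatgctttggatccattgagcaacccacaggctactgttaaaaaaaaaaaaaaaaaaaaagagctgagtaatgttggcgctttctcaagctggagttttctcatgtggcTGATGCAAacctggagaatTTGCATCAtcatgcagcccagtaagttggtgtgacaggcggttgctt
Sema7a: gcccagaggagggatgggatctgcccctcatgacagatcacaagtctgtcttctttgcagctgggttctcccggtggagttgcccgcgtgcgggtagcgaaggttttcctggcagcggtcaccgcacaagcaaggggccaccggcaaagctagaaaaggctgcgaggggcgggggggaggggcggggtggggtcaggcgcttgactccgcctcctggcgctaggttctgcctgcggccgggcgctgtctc

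ERSE was found in 7 of 21 chaperone genes with a promoter in the table (33.3%), against 17 of 10074 genes tested that had one (0.169%). CARE was found in 8 of 22 ATF4 and CHOP genes (36.4%), against 63 of the 10074 (0.625%), and ERSE-II in 1 of these 22, against 8 of the 10074 (0.0794%). In the other lists of amino acid supply, CARE was found in 2 of 14 synthesis, 2 of 12 tRNA synthetase and 1 of 9 transporter genes. The 10074 include the tested genes of the lists. The lists were made of genes already known for these responses, so a high share in them is no separate finding. Among 315 genes with a 2-fold lower starvation effect and a promoter, 8 held ERSE (2.54%), 2 ERSE-II (0.635%) and 15 CARE (4.76%). Among 125 with a 2-fold higher effect, 0 held any of them. A match describes letters in a window and not binding, which was not measured.

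Sterol synthesis had the lowest median starvation effect of the lists described. Of 24 genes for cholesterol synthesis and its control by SREBP, 22 had a lower starvation effect and 0 a higher one (median -1.36). With starvation 23 fell and 0 rose, while 14 rose and 2 fell with thapsigargin, and 14 passed in opposite directions. The list counts for thapsigargin alone, where effects were small, were not repeated under other scalings. Insig1, which holds SREBP in the ER, had 12, 13.4 and 10.9 TPM in starved and 62.3, 62.3 and 62.6 TPM in untreated libraries, and 128, 115 and 125 TPM in thapsigargin and 61.2, 57.5 and 56.8 TPM in DMSO libraries (difference -3.34, SE 0.0967, adjusted p = 6.06e-20). All starved libraries lie below all untreated ones, and thapsigargin stands above DMSO without overlap.

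Hmgcs1, which makes the precursor HMG-CoA, had 27.2, 29 and 28 TPM starved and 152, 145 and 158 TPM untreated (effect -2.39, SE 0.0824, adjusted p = 6.59e-18), with 184, 164 and 177 TPM in thapsigargin and 148, 153 and 144 TPM in DMSO libraries (difference -2.63, SE 0.117, adjusted p = 6.25e-16). The rise of Hmgcs1 with thapsigargin (0.24) did not pass after rescaling (0.09, adjusted p = 0.148). Nor did it pass without DMSO replicate 1 or 3, or without thapsigargin replicate 1 or 3. Mvd, a mevalonate pathway enzyme, differed by -2.56 (SE 0.11, adjusted p = 3.17e-16). Here, unlike in the ATF4 and chaperone lists, most of the difference lies in the starvation effect (median -1.05, against 0.24 for thapsigargin).

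Fatty acid synthesis genes, also under SREBP, had a lower starvation effect in 10 of 14 and a higher one in 0 (median -0.64). Starvation lowered 11 and raised 0, and thapsigargin raised 4 and lowered 1. The desaturase gene Scd2 stood at 121, 119 and 104 TPM in starved and 321, 288 and 338 TPM in untreated libraries, with overlapping values in thapsigargin (306, 272 and 307 TPM) and DMSO (288, 304 and 283 TPM) libraries (difference -1.47, SE 0.128, adjusted p = 8.74e-10). Mid1ip1, an activator of acetyl-CoA carboxylase, differed mostly through its rise with thapsigargin (1.17, difference -1.52), and the elongase gene Elovl6 mostly through its fall with starvation (-0.96, difference -0.79).

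In the other direction, most genes of growth factor signalling tested had the higher starvation effect. Of 22 genes for feedback on the kinase ERK and for ligands of the EGF receptor, 17 had a higher and 2 a lower starvation effect (median 0.78). Starvation raised 18 and lowered 0, and thapsigargin raised 6 and lowered 7. Hbegf, a ligand of the EGF receptor, had 305, 315 and 368 TPM starved and 76.2, 81.9 and 82.2 TPM untreated, and 82.6, 73.5 and 75.6 TPM with thapsigargin and 89.5, 90.2 and 88.8 TPM with DMSO (difference 2.23, SE 0.0897, adjusted p = 7.04e-17). The starved libraries stand apart from all others.

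Dusp6, a phosphatase of ERK, had 106, 112 and 117 TPM in starved and 40.5, 40.2 and 47 TPM in untreated libraries, and 33.5, 27 and 27.4 TPM in thapsigargin and 53, 52.6 and 49.3 TPM in DMSO libraries (difference 2.17, SE 0.15, adjusted p = 8.59e-12). Errfi1, an inhibitor of the EGF receptor, had 139, 144 and 153 TPM starved, 45.3, 45 and 52.7 TPM untreated, 36.4, 30.3 and 32.5 TPM with thapsigargin and 55.9, 57 and 53 TPM with DMSO (difference 2.32, SE 0.107, adjusted p = 1.34e-15). In both genes starvation raised and thapsigargin lowered the level with no overlap, and the phosphatase gene Dusp5 did the same (difference 2.17). The lower ones were Dusp14 (-0.67) and the transcription factor gene Etv5 (-0.55).

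Immediate early genes, mostly for transcription factors and induced soon after a stimulus, had the higher starvation effect more often than all genes did. Of 24 tested, 11 had a higher starvation effect (45.8%, against 7.25% of all genes). A lower one was found for 5 (20.8%, near the 17.2% of all genes), and the median was 0.25. With starvation 20 rose and 0 fell, and with thapsigargin 14 rose and 5 fell. Egr3 had 17.7, 16.3 and 19.7 TPM starved and 6.10, 4.94 and 7.49 TPM untreated, and 3.59, 3.64 and 4.11 TPM with thapsigargin and 7.75, 9.62 and 7.62 TPM with DMSO (difference 2.37, SE 0.221, adjusted p = 3.21e-09). Egr2 and Jun differed by 1.51 and 1.31.

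Klf4, a zinc finger factor, was the lowest of the list. It had 9.55, 9.23 and 13 TPM in starved and 8.59, 7.22 and 8.44 TPM in untreated libraries, and 90.8, 82.1 and 92.9 TPM in thapsigargin and 9.30, 7.90 and 8.48 TPM in DMSO libraries (difference -2.89, SE 0.155, adjusted p = 3.71e-14). Klf10 rose with both stresses and more with thapsigargin (difference -0.82, SE 0.153, adjusted p = 0.00017), and Nr4a3 stayed under 2 TPM throughout (difference -0.97).

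Sema7a, a membrane-anchored semaphorin, was the named gene with the highest difference. It had 32.1, 31.3 and 40.2 TPM in starved and 4.18, 4.03 and 5.08 TPM in untreated libraries, and 2.24, 1.59 and 1.83 TPM in thapsigargin and 5.38, 4.04 and 4.34 TPM in DMSO libraries (difference 3.66, SE 0.174, adjusted p = 2.6e-15). It rose with starvation and fell with thapsigargin, with no overlap in either pair.

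Other genes among the highest that rose with starvation and fell with thapsigargin were the forkhead factor gene Foxs1 (difference 2.93), the hyaluronan synthase gene Has2 (2.16), the receptor kinase gene Ret (2.15) and the metalloproteinase inhibitor gene Timp3 (2.13). Fgf2, a fibroblast growth factor gene, rose with starvation (1.87) and did not pass with thapsigargin (-0.40, adjusted p = 0.194).

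Others owed their difference mainly to a fall with thapsigargin. Oaf, a secreted protein gene, had 86.9, 72 and 80.9 TPM starved and 56.8, 58 and 59.7 TPM untreated, and 7.40, 9.08 and 12.2 TPM with thapsigargin and 53, 54 and 53.1 TPM with DMSO (difference 2.84, SE 0.209, adjusted p = 3.11e-11). Scara3, a scavenger receptor gene, and Adm, which encodes the peptide adrenomedullin, fell with thapsigargin (-2.40 and -2.06) and did not pass with starvation (-0.17 and 0.07).

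The remaining genes with the lowest differences rose with thapsigargin: Ciart, a circadian repressor, by 3.51, Acot2, a mitochondrial thioesterase, by 3.27, and Zrsr1, a splicing factor gene, by 2.92. Zrsr1 was uneven, with 4.06, 3.72 and 4.86 TPM in starved and 6.16, 5.54 and 32.2 TPM in untreated libraries, and 49, 93.1 and 54.2 TPM in thapsigargin and 11.5, 6.05 and 5.76 TPM in DMSO libraries, so that untreated replicate 3 stands apart (difference -4.08, SE 0.949, adjusted p = 0.00184).

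In all, 642 of the 16083 genes tested passed in opposite directions, 445 of them down with starvation and up with thapsigargin. Starvation alone raised 11.7% and lowered 12.2% of all genes, and thapsigargin raised 25.4% and lowered 11.3%. Such shares give overlaps in either direction even where calls are unrelated, and whether the counts exceed this was not tested. The 8 of the 642 in which the smaller of both effects was largest were Chac1, Trib3, Foxs1, Herpud1, Gpt2, Adamts1, Sesn2 and Tmem86a. Adamts1, a matrix protease gene, had 22.8, 22.8 and 22.7 TPM starved and 49.7, 47.4 and 58.5 TPM untreated, and 142, 137 and 132 TPM with thapsigargin and 46.5, 47.8 and 44.2 TPM with DMSO (difference -2.70, SE 0.145, adjusted p = 3.59e-14). Tmem86a, a membrane protein gene, stayed under 10 TPM (difference -2.30).

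Other genes moved the same way: 1473 of the 16083 genes tested passed in the same direction with both stresses, 984 up and 489 down. Whether this count exceeds the overlap of unrelated calls was likewise not tested. For 1163 of the 1473 the difference did not pass. At least 2-fold, starvation raised 125 genes and lowered 70 (0.777 and 0.435%), thapsigargin raised 456 and lowered 124 (2.84 and 0.771%), and 19 genes moved the same way in both, 18 of them up. For 13 of the 19 the difference did not pass. Vegfa, an angiogenic growth factor gene, led these, with 218, 207 and 269 TPM starved and 68.7, 64.6 and 81.1 TPM untreated, and 218, 198 and 193 TPM with thapsigargin and 86.1, 52.3 and 57.6 TPM with DMSO. Stressed libraries lie above their controls in both pairs, and the difference was 0.03 with a 95% interval of -0.44 to 0.49. Such an interval leaves room for a real difference and does not show equal effects.

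Ptgs2, the inducible cyclooxygenase gene, stood at 355, 409 and 422 TPM in starved and 109.9, 99.6 and 131 TPM in untreated libraries, and at 436, 388 and 389 TPM in thapsigargin and 135, 137 and 145 TPM in DMSO libraries (95% interval of the difference -0.05 to 0.58). After rescaling its starvation effect was the higher (0.41, adjusted p = 0.00741). Rgs16, a regulator of G protein signalling, had the narrowest interval of the 8 named (-0.22 to 0.27), but with a common control its starvation effect was lower (-0.24, adjusted p = 0.023). The intervals were -0.36 to 0.52 for the aryl hydrocarbon receptor gene Ahr, -0.42 to 0.16 for the proapoptotic gene Pmaip1 and -0.35 to 0.58 for the lymphangiogenic factor gene Vegfc. They were -0.15 to 0.40 for Fam110c and -0.94 to 0.00 for Rsbn1, whose starvation effect was lower with a common control (-0.65, adjusted p = 0.00204).

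Cytokine and NF-kappaB genes differed in both directions. Of 16 tested, 6 had a higher and 5 a lower starvation effect (median 0.25); 11 rose and 0 fell with starvation, and 11 rose and 3 fell with thapsigargin. Tnfaip3, a brake on NF-kappaB, had 39.3, 41.6 and 45 TPM starved and 16.4, 15.5 and 19.3 TPM untreated, against overlapping values with thapsigargin (20.3, 15 and 18.5 TPM) and DMSO (19.1, 15.7 and 16.1 TPM; difference 1.19, SE 0.151, adjusted p = 7.55e-07). Il11 and Csf1, both cytokine genes, differed by 1.22 and 1.12. The chemokine genes Ccl7 and Ccl2 went the other way (-2.26 and -1.57), with Ccl2 at 32.1, 30.5 and 26 TPM starved, 21.6, 22.6 and 22.7 TPM untreated, 105, 80.1 and 109.8 TPM with thapsigargin and 25.7, 23.7 and 23.7 TPM with DMSO. Ccl20 stayed under 2 TPM and was listed at 0 in all 3 DMSO libraries.

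Nutrient and growth control differed as well. Of 24 genes of mTORC1 and nutrient sensing, 12 had a lower and 2 a higher starvation effect (median -0.53), 10 fell and 1 rose with starvation, and 10 rose and 3 fell with thapsigargin. Ddit4, an mTORC1 inhibitor also on the ATF4 list, had 9.22, 9.90 and 9.53 TPM in starved and 22.9, 21.9 and 21.8 TPM in untreated libraries, and 55.2, 60.6 and 59 TPM in thapsigargin and 21.6, 21.3 and 20.0 TPM in DMSO libraries (difference -2.57, SE 0.105, adjusted p = 1.07e-16). Eif4ebp1, a translation repressor, differed by -1.32, while Irs1, an adaptor of the insulin receptor, and Eif4ebp2 went the other way (0.79 and 0.45). Eif4ebp2 did not pass without untreated replicate 2 (0.38) or thapsigargin replicate 3 (0.41).

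Of 28 lysosome and autophagy genes, 10 had a lower starvation effect and 0 a higher one (median -0.15); 8 fell and 1 rose with starvation, and 9 rose and 5 fell with thapsigargin. Neu1, a lysosomal sialidase, had 7.96, 6.59 and 8.67 TPM starved and 14.8, 15.5 and 14.4 TPM untreated, and 18.9, 17.1 and 21.6 TPM with thapsigargin and 15.3, 12.1 and 13.6 TPM with DMSO (difference -1.33, SE 0.134, adjusted p = 1.4e-08). Nbr1, an autophagy receptor, differed by -0.84, and its starvation effect alone did not pass.

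Of 23 genes for handling of ER calcium, which thapsigargin disturbs directly, 4 had a lower (17.4%, near the 17.2% of all genes) and 1 a higher starvation effect (5 higher after rescaling; median -0.17), with 3 up and 5 down with starvation and 7 up and 2 down with thapsigargin. Saraf, a brake on store-operated calcium entry, had 39.7, 40.6 and 43.9 TPM in starved and 46, 45.5 and 48 TPM in untreated libraries, and 92.5, 82.6 and 89 TPM in thapsigargin and 49.2, 47.1 and 45.8 TPM in DMSO libraries (difference -1.04, SE 0.0724, adjusted p = 8.77e-12). The store sensor gene Stim2 went the other way (0.64), and Nucb2 and Orai2 differed by -0.73 and -0.56, the second lost under quantile normalization.

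Of 17 genes of calcineurin and other calcium responses, 6 had a higher and 1 a lower starvation effect (5 lower with a common control; median 0.01); 1 rose and 2 fell with starvation, and 5 rose and 6 fell with thapsigargin. The lower one was Rcan1, a calcineurin inhibitor and target of NFAT, at 15.9, 16 and 15.6 TPM starved and 16.2, 16 and 17.3 TPM untreated, and 104, 86.8 and 104 TPM with thapsigargin and 15.7, 16 and 17 TPM with DMSO (difference -2.58, SE 0.126, adjusted p = 3.93e-15). S100a11, a calcium-binding protein gene, fell with thapsigargin to 709, 687 and 726 TPM, against 2241, 2266 and 2194 TPM with DMSO (difference 1.64, SE 0.0997, adjusted p = 5.13e-13). S100a6 and Camkk2 differed by 0.61 and 0.71. S100a4, a fibroblast marker of the same family, fell with thapsigargin too (-1.53).

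Matrix and cell cycle lists depended on scaling. Of 24 collagen and matrix genes, 8 had a higher and 1 a lower starvation effect (13 and 0 after rescaling; median 0.28); 6 rose and 6 fell with starvation, and 1 rose and 11 fell with thapsigargin. Tnc, a matrix glycoprotein gene, had 322, 327 and 385 TPM starved and 155, 142 and 179 TPM untreated, and 220.1, 198 and 206 TPM with thapsigargin and 169, 167 and 170.3 TPM with DMSO (difference 0.82, SE 0.155, adjusted p = 0.000205). Fbn1, for a microfibril protein, differed by 1.09, and the collagen chaperone gene Serpinh1 by -0.33, which did not pass after rescaling (-0.19, adjusted p = 0.287).

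Of 23 genes of G2 and mitosis, 5 had a higher starvation effect (21.7%, against 7.25% of all genes) and 3 a lower one (13.0%, against 17.2%). These were 8 and 0 after rescaling, and 2 and 4 without both libraries of high short RNA, and the median was 0.01. With starvation 13 fell and with thapsigargin 16, and 0 rose with either. Cdk1, the mitotic kinase, had 412, 418 and 424 TPM in starved and 412, 415 and 427 TPM in untreated libraries, and 286, 308 and 306 TPM in thapsigargin and 419.7, 449 and 433 TPM in DMSO libraries (difference 0.53, SE 0.0727, adjusted p = 2.42e-06). Aurkb, another mitotic kinase gene, fell with both and more with starvation (-0.33), which did not pass after rescaling (-0.20, adjusted p = 0.0784), nor without starved replicate 2 (-0.31) or DMSO replicate 2 or 3 (-0.29 and -0.27).

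Of 30 DNA replication genes, 11 had a lower and 2 a higher starvation effect (4 and 4 after rescaling; median -0.15); 9 rose and 2 fell with starvation, and 15 rose and 1 fell with thapsigargin. The origin licensing genes Cdt1 and Cdc6 differed by -1.01 (SE 0.116, adjusted p = 1.34e-07) and -0.85 (SE 0.0784, adjusted p = 2.7e-09), with Cdt1 at 92, 86.1 and 100.3 TPM starved, 80.0, 87.1 and 76.4 TPM untreated, 196, 195 and 176 TPM with thapsigargin and 85.4, 76.2 and 83.4 TPM with DMSO. Ccne1, which encodes cyclin E1, went the other way (0.76, SE 0.101, adjusted p = 1.58e-06).

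Of 32 ribosome biogenesis genes, 3 had a higher and 6 a lower starvation effect (12 and 2 after rescaling), with a median of 0.06. These shares, 9.38 and 18.8%, lie near the 7.25 and 17.2% of all genes. With starvation 24 rose and 0 fell, and with thapsigargin 20 rose and 1 fell. Nop16 differed by 0.70 and Rrp12 by -0.46. Of 53 ribosomal protein genes, 7 had a higher starvation effect and 0 a lower one (10 and 4 under quantile normalization, 23 and 1 with a common control, 13 and 0 without both libraries of high short RNA; median 0.14). Thapsigargin lowered 19 of them and raised 1, and starvation lowered 1 and raised 2. Rpl24 had 1346, 1318 and 1374 TPM in starved and 1437, 1526 and 1296 TPM in untreated libraries, and 816, 769.9 and 812 TPM in thapsigargin and 1203, 1465 and 1465 TPM in DMSO libraries (difference 0.70, SE 0.126, adjusted p = 9.93e-05). Ribosomal protein genes have many near-identical pseudogenes, so their TPM is uncertain. Of 13 mitochondrially encoded genes, 1 had a higher starvation effect (7.69%, near the 7.25% of all genes) and 0 a lower one. After rescaling 5 were higher, and the median was 0.36. The higher one, mt-Nd1 (0.42), did not pass under quantile normalization (0.16) or without both libraries of high short RNA (0.22). Thapsigargin lowered 4 of the 13, and 0 passed with starvation. Mitochondrial transcripts took 4.27 to 5.78% of TPM with thapsigargin, against 6.39 to 7.29% with DMSO.

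Of 21 NRF2 antioxidant genes, 6 had a higher starvation effect (28.6%, against 7.25% of all genes) and 3 a lower one (14.3%, near 17.2%). These were 9 and 3 after rescaling, and 4 and 6 with a common control, and the median was 0.14. Starvation raised 4 and lowered 5, and thapsigargin raised 4 and lowered 8. Hmox1, the haem oxygenase gene, had 58.6, 60.5 and 59.4 TPM starved and 71.5, 81.7 and 77.7 TPM untreated, and 236, 213 and 213 TPM with thapsigargin and 94.6, 105 and 107 TPM with DMSO (difference -1.47, SE 0.0875, adjusted p = 3.56e-13). Txnrd1, a thioredoxin reductase gene, went the other way (0.46) and did not pass with a common control (0.11, adjusted p = 0.288).

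Of 21 p53 target genes, 9 had a lower and 3 a higher starvation effect (7 and 5 after rescaling; median -0.19); starvation raised 4 and lowered 5, and thapsigargin raised 9 and lowered 3. Gdf15, a stress cytokine gene also on the ATF4 and CHOP list, was low outside thapsigargin. It had 4.14, 5.31 and 5.29 TPM in thapsigargin and 0.129, 0.134 and 0.276 TPM in DMSO libraries (difference -2.47, SE 0.164, adjusted p = 3.6e-12). Btg2 went the other way (0.72).

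Of 22 heat shock genes, 6 had a lower and 1 a higher starvation effect (3 and 3 after rescaling, 3 and 6 with a common control; median -0.11). Starvation lowered 11 and thapsigargin 9, and thapsigargin raised 3. Bag3, a cochaperone of HSP70, differed by -0.47 and the small heat shock gene Hspb1 by 0.53. Of 16 interferon-stimulated genes 7 had a lower starvation effect (4 under quantile normalization) and 0 a higher one (median -0.43); starvation lowered 7 and raised 1, and thapsigargin raised 3. Stat2, which carries the interferon signal, differed by -0.88. Of 23 hypoxia and glycolysis genes, 3 had a higher and 3 a lower starvation effect (5 and 2 after rescaling), with a median of 0.03. Each share is 13.0%, against 7.25% higher and 17.2% lower over all genes. Starvation raised 4 and lowered 3, and thapsigargin raised 3 and lowered 9. The glucose transporter gene Slc2a1 and the mitophagy receptor gene Bnip3 differed by 0.63 and -0.90.

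**Figure D3:**
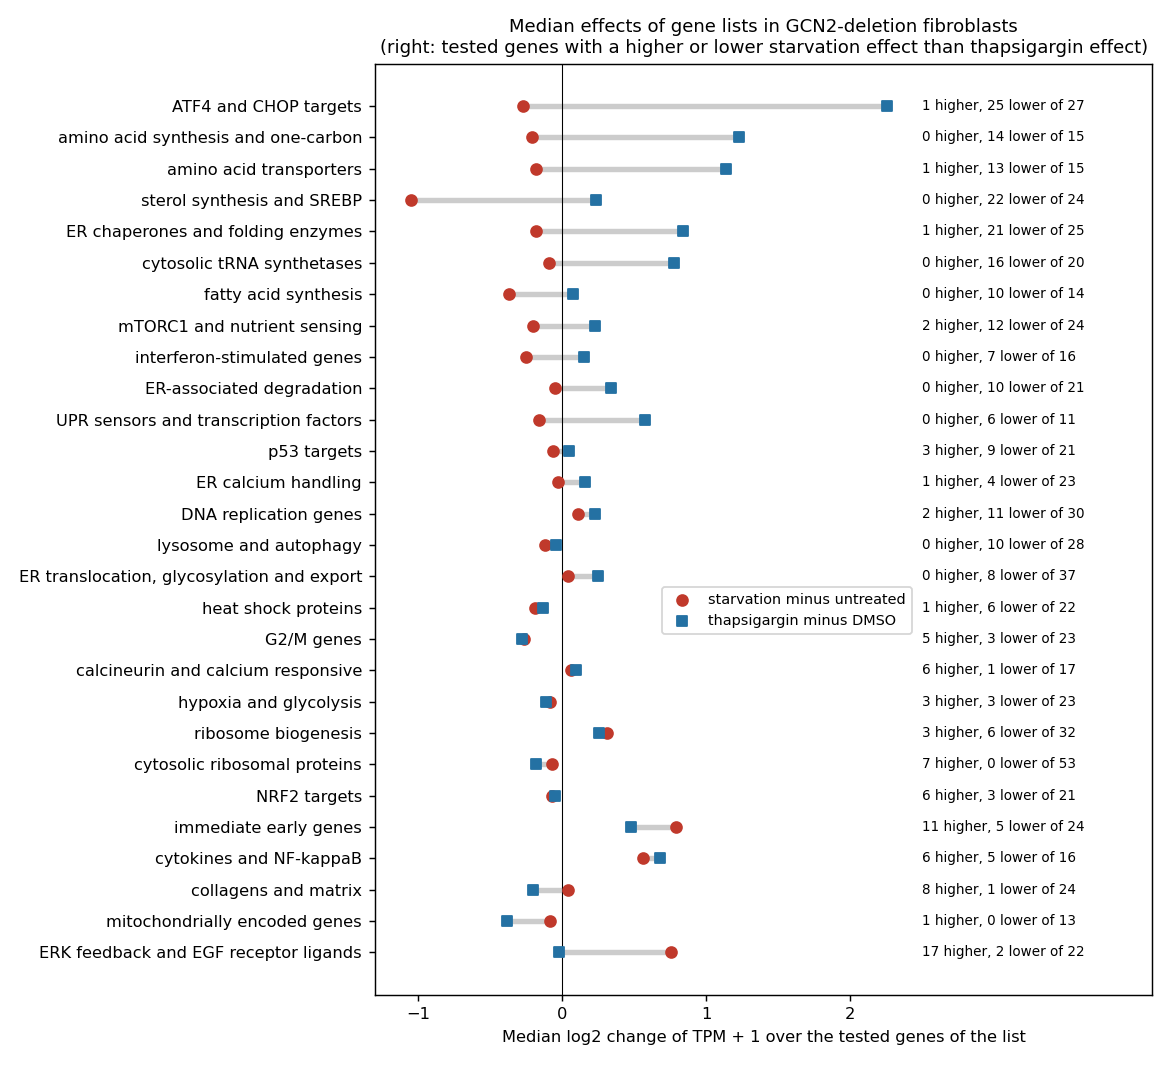
Median log2 change of TPM + 1 (horizontal axis) over the tested genes of each list in the GCN2-deletion line, for starvation minus untreated (circles) and thapsigargin minus DMSO (squares); the text at the right counts members whose starvation effect was higher or lower than their thapsigargin effect. The ATF4 and CHOP list is widest apart (-0.27 and 2.26), sterol synthesis lies at -1.05 and 0.24, and ERK feedback at 0.76 and -0.02.

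The same difference of effects was then compared with that of WT cells, which hold both kinases, in the same fit. In WT 928 genes (5.77%) had a higher and 993 (6.17%) a lower starvation effect. The difference in GCN2-deletion cells was higher than in WT for 180 genes (1.12%) and lower for 709 (4.41%), 46 and 297 of them by at least 1 (0.286 and 1.85%). After rescaling the first count was 473, and with a common control the counts were 872 and 3573. Of the 12 panel genes, 11 were lower and Hspa5 did not pass (-0.22, SE 0.126, adjusted p = 0.386), although it was lower under quantile normalization (-0.72, adjusted p = 0.00148) and with a common control (-0.25, adjusted p = 0.0349).

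Trib3 in WT had 188, 203 and 220.3 TPM starved and 20.7, 18.2 and 16.7 TPM untreated, and 295, 323 and 291 TPM with thapsigargin and 21.4, 20.9 and 18.9 TPM with DMSO, so that both stresses raised it there (difference in WT -0.44, SE 0.172, adjusted p = 0.102). Its difference in GCN2-deletion cells minus that in WT was -6.30 (SE 0.243, adjusted p = 4.67e-16). Gpt2 had 93.7, 98.2 and 107 TPM in starved and 30.0, 28.9 and 26.3 TPM in untreated WT libraries, and 88.5, 80.9 and 79.8 TPM with thapsigargin and 32.5, 29.3 and 30.7 TPM with DMSO (GCN2-deletion minus WT -4.09, SE 0.283, adjusted p = 4.54e-11). The starvation effects of Trib3 and Gpt2 were -1.72 and -1.16 in GCN2-deletion cells, against 3.39 and 1.77 in WT cells. Their thapsigargin effects were 5.02 and 2.56 in GCN2-deletion cells, against 3.83 and 1.40 in WT cells, and neither effect was tested between lines on its own.

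By list, the difference was lower in GCN2-deletion cells than in WT for 25 of 27 ATF4 and CHOP genes, 14 of 15 amino acid synthesis genes, 13 of 20 tRNA synthetase genes and 11 of 15 transporter genes, with 0 higher in any of these. For the ER chaperones it was lower in 2 of 25 and higher in 1, and for sterol synthesis lower in 0 of 24 and higher in 6. For ERK feedback and EGF receptor ligands it was lower in 4 of 22 and higher in 1. Median differences were -2.31 for the ATF4 and CHOP list, 0.13 for the chaperones and 0.31 for the sterol list, against -0.082 over all genes tested. The genes highest against WT were Adm (2.01, SE 0.324, adjusted p = 0.000121), Ret (1.99), Adcyap1r1 (1.93), Fosb (1.88), Foxs1 (1.72) and Dynap (1.65). Ret and Foxs1 were at or under 1.43 TPM in every WT library of these groups, and with a pseudocount of 0.1 the value of Foxs1 was -0.26 (adjusted p = 0.882) and Dynap did not pass (1.19, adjusted p = 0.08).

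**Figure D4:**
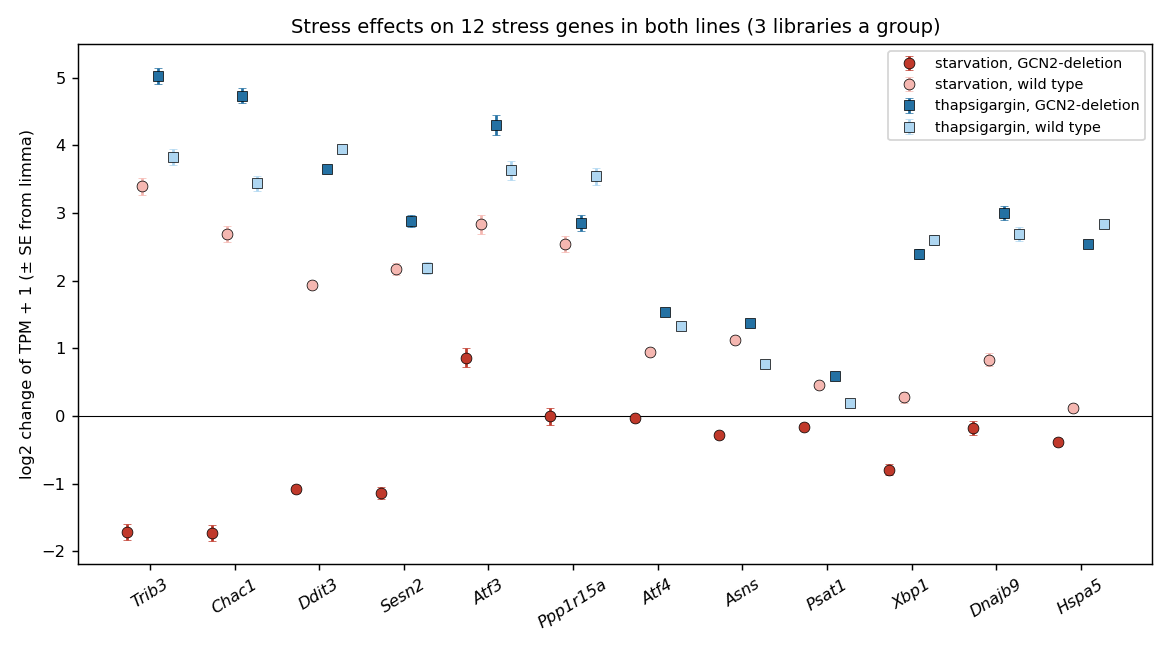
Log2 change of TPM + 1 (vertical axis) of 12 stress genes with starvation (circles) and thapsigargin (squares) in GCN2-deletion (dark) and WT (light) cells, 3 libraries a group; lines are SE from limma. Starvation effects of Trib3 (-1.72 against 3.39 in WT) and Chac1 (-1.73 against 2.69) lie on opposite sides of 0 in the lines, and Hspa5 responds to thapsigargin in both (2.54 and 2.83).

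Against PERK-deletion cells, which keep GCN2, the difference was higher in GCN2-deletion cells for 359 genes (2.23%) and lower for 1195 (7.43%). In the ATF4 and CHOP list it was lower in 23 of 27 and higher in 0, and in the chaperone list lower in 2 of 25 and higher in 3. In PERK-deletion cells the difference of effects was -0.79 for Trib3, -1.17 for Chac1 and -2.80 for Hspa5, against -6.74, -6.46 and -2.93 in GCN2-deletion cells.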

How the data were processed

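Gene expression was measured by RNA sequencing. Per the labels, RNA was extracted with TRIzol and libraries were made with an Illumina stranded kit. The submitters' processing notes name FastQC, kallisto and the mm10 build, with versions not given in the sources used here. The authors deposited TPM values, which sum to 999999.83 to 1000000.09 in each of the 36 libraries, so read depth is unknown and no counting interval could be given.

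The filter kept 16083 of 54735 symbols, those reaching 1 TPM in 3 or more libraries. From log2(TPM + 1), which understates changes of low genes, 12 group means were fitted to all 36 libraries with limma 3.58.1 (lmFit, contrasts.fit, eBayes with trend) in R 4.3.3, with 24 residual degrees of freedom and two-sided tests. P-values were adjusted over all genes tested. The fit was also run on simulated data with independent normal noise of the fitted spread. Such data meet the assumptions of the fit, so they cannot test technical replication, scaling or low genes, and the outcome is not reported here. Figures used Python 3.11.15 and matplotlib 3.10.9.

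Members, gene lists and the panel were chosen with earlier results of these data known. Named genes were the eIF2alpha kinases, the panel of 12 stress genes, the 15 highest and 15 lowest differences among genes of at least 5 TPM, up to 3 highest and 3 lowest genes of each list, 8 genes each with opposite and with shared effects, and the 6 highest and 6 lowest against WT. Not all of the named genes are printed, and some results are not reported here. Short RNA genes, unnamed gene models and pseudogenes were left out of the genes ranked by difference. Promoters and starts came from RefSeq (GRCm38.p6).

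Alternatives were median-of-ratios rescaling, quantile normalization, a pseudocount of 0.1, no filter or a filter at 5 TPM, no variance trend, no short RNA genes, a replicate block, the compared groups alone, a common control or the other control, and leaving out each library. Leaving out both libraries over 2% short RNA was chosen after seeing the data.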

Additional observations from a re-analysis of the deposited data

Results flagged for a closer look

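The difference of effects (starvation minus thapsigargin) in GCN2-deletion cells was tested against that in WT cells with an interaction contrast in limma. Among 22 named genes looked at here, it passed in 21. It was lower in GCN2-deletion cells for Trib3 (-6.30), Chac1 (-5.71), Slc7a11 (-4.85), Adm2 (-4.78), Gadd45a (-4.29), Gpt2 (-4.09), Sesn2 (-4.01), Ddit3 (-2.72) and Atf3 (-2.63). It was also lower for Asns (-2.02), Ppp1r15a (-1.86), Dnajb9 (-1.32), Atf4 (-1.20), Psat1 (-1.01) and Xbp1 (-0.86). It was higher in GCN2-deletion cells for Adm (2.01), Ret (1.99), Adcyap1r1 (1.93), Fosb (1.88), Foxs1 (1.72) and Dynap (1.65). Dynap did not pass with a pseudocount of 0.1 (1.19, adjusted p = 0.08), nor did Foxs1 (-0.26). The 22 genes are the panel of stress genes and the genes highest and lowest against WT. The highest and lowest were picked by their values in this same contrast, so their passing is no separate finding. The rest of the 151 named genes were not counted here, so 21 is not a total. All values are differences of log2(TPM + 1) effects over 3 libraries a group, and each line is 1 line per genotype.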

How the results depend on the processing

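After median-of-ratios rescaling, 2102 genes had the higher starvation effect, thapsigargin lowered 3226, DMSO raised 28 and lowered 56, and the difference was higher than in WT for 473 and than in PERK-deletion cells for 768. Under quantile normalization these were 1848, 3123, 26 and 45, 422 and 711. With a pseudocount of 0.1, 745 genes had a 2-fold lower starvation effect. Fitting the compared groups alone, DMSO raised 1 gene and lowered 1. With a common control the counts for the difference were 1755 higher and 4446 lower, against WT 872 and 3573, and against PERK-deletion cells 794 and 2403. Without both libraries of high short RNA DMSO raised 5 genes, and 24.6% of differing genes had the higher starvation effect (1026 higher, 3153 lower). Foxs1 against WT turned negative with a pseudocount of 0.1 (-0.26), and Rgs16 turned negative and passed with a common control (-0.24). Other named differences near 0 that did not pass also changed sign under some alternatives, among them Ahr (-0.21) and Fam110c (-0.13) with a common control. The cause was not tested.

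Leaving out each library gave 984 to 1151 higher and 2372 to 2980 lower genes for the difference, 5 to 11 raised and 7 to 17 lowered by DMSO, 153 to 188 higher and 602 to 788 lower against WT, and 296 to 405 higher and 968 to 1424 lower against PERK-deletion cells. In 121 of 151 named genes the difference stayed on its side of the threshold under every alternative that gave it a value. Many of the 151 were picked as the highest or lowest called differences, so this share does not carry over to all genes that differed. The replicate numbers did not pair the libraries: deviations of same-numbered libraries correlated at -0.085 to 0.081. With the replicate block 1163 genes had the higher and 2805 the lower starvation effect. TPM without read counts limits what can be said of low genes.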
